A study of Arabidopsis thaliana with 5 samples.

Results

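AT5G19100, AT5G19110 and AT5G19120 are members of the aspartyl protease family of Arabidopsis thaliana that lie side by side on chromosome 5. They were chosen, with the adjacent chromosome 1 genes AT1G03220 and AT1G03230, as 5 loci likened to endoglucanase inhibitors. Membership required a probe set for which the platform annotation named that locus alone. Of the 5 loci, 3 met this rule, all on chromosome 5, out of 13286 genes with such a probe set on the ATH1 array. AT1G03220 and AT1G03230 share 1 probe set, so its signal belongs to the pair and to neither gene alone. The loci were selected on their signals in these samples, that is, on the difference between sorted protoplasts and whole roots, with AT5G19110 chosen by its high fold change. Their values are therefore descriptions without a test.

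Aspartyl proteases of the pepsin type cut proteins with a pair of catalytic aspartates. A branch of the plant family is secreted into the cell wall, and some of its members are thought to have turned from proteases into inhibitors. In tomato and carrot, secreted proteins of this branch bind and block microbial xyloglucan-degrading endoglucanases, enzymes that open the wall. Whether the Arabidopsis proteins have that activity was not analysed here.

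The study measured the effect of protoplasting and cell sorting on root transcripts. One group was 3 samples of sorted protoplasts, cells of the whole root stripped of their walls by protoplasting and collected on a sorter, each represented by RNA of about 50000 cells. The other was 2 samples of intact whole roots, for which labelling began with 1 µg of RNA. All were ecotype Columbia seedlings grown for 5 days at pH 5.7 and then kept for 24 h at pH 4.6, so every sample carries the low pH treatment. The labels name no genotype change or reporter line. They do not say whether replicates came from separate cultures, so the spread between samples may be technical. Preparation and RNA amount differed between the groups in every sample, so their effects and that of the group cannot be told apart.

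AT5G19110 (probe set 249971_at) was bright in sorted protoplasts and dim in whole roots. Its signal was 1031, 1399 and 1061 in sorted protoplasts, against 12.1 and 17.1 in whole roots. The groups lay far apart, and the spread within each was small beside the gap, with the highest sample 1.36 times the lowest among sorted protoplasts and 1.41 times among whole roots. The mean signal was 1164 ± 205 in sorted protoplasts and 14.6 ± 3.50 in whole roots (SD, n = 3 and n = 2), a log2 fold change of 6.32. That was the second highest value of 13647 tested probe sets (rank 2), a rank taken on the value that chose the gene. The rank also depends on the dim filter. AT1G76640, left out as dim, had a higher log2 fold change of 7.12. For AT5G19110, each of the pairings of a sorted with a whole-root sample gave a log2 difference between 5.91 and 6.85. Both whole-root signals lay under 43.3, the signal below which probe sets were left out as dim, so the fold is imprecise. Set against that bound, the sorted mean was 26.9-fold higher. In bulk RNA, fewer cells of a type and less RNA per cell cannot be told apart.

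AT5G19120 (249923_at), the next gene along, was well measured in both groups. It had signals of 866, 993 and 935 in sorted protoplasts, against 385 and 477 in whole roots. The groups did not overlap, and the lowest sorted sample stood above the higher whole-root sample. The means were 932 ± 63.7 in sorted protoplasts and 431 ± 65.3 in whole roots (SD, n = 3 and n = 2), a 2.17-fold difference (log2 1.12). Of the tested probe sets, 85.2% had a lower log2 fold change.

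AT5G19100 (249970_at), on the other side of AT5G19110, was near the dim bound everywhere. Its signals were 37.5, 46.9 and 39.2 in sorted protoplasts, against 56.5 and 41.3 in whole roots. The sorted sample at 46.9 lay between the whole-root samples, so the groups overlapped. The means were 41.2 ± 5.01 in sorted protoplasts and 48.9 ± 10.7 in whole roots (SD, n = 3 and n = 2). The log2 fold change was -0.24, but 0.00183 with the arrays centred on their medians and 0.13 with quantile normalization, so this gene has no settled direction.

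All 3 genes passed the filter on dim probe sets, AT5G19110 through its sorted samples. The groups did not overlap at 2 of the 3 genes, where 75.8% of tested probe sets showed no overlap in either direction and 42.7% showed it with sorted protoplasts higher. Nothing is read from that count, because these values chose the genes.

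**Figure D1:**
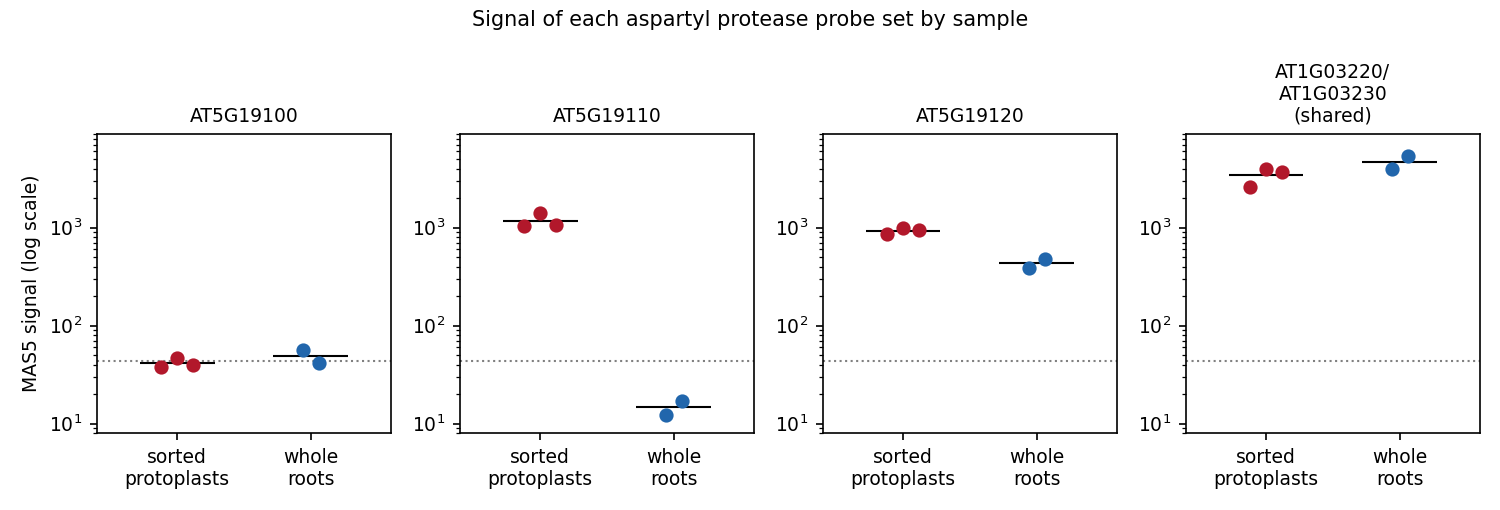
MAS5 signal (log scale) of the 3 chromosome 5 genes and of the probe set shared by AT1G03220 and AT1G03230, with a point for each sample, sorted protoplasts left and whole roots right. Horizontal lines are group means and the dotted line is the dim bound of 43.3; AT5G19110 crosses that bound between the groups, AT5G19100 stays around it, and the shared chromosome 1 probe set overlaps between the groups.

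The neighbours differed from one another within each array, a comparison in which array scaling cancels. On the log2 scale, the AT5G19110 signal minus the AT5G19120 signal was 0.25, 0.49 and 0.18 in sorted protoplasts, against -4.98 and -4.80 in whole roots. The log2 fold changes of these neighbours differed by 5.20, or by 3.61 with a pseudocount of 32. The size is imprecise, since the whole-root signals of AT5G19110 lay under the dim bound. For AT5G19100 and AT5G19120 the same difference was -4.53, -4.40 and -4.58 in sorted protoplasts and -2.77 and -3.53 in whole roots. The log2 fold change of AT5G19100 minus that of AT5G19120 was -1.36, or -1.20 with a pseudocount of 32. That size is imprecise too, since AT5G19100 was near the dim bound in every sample. These differences describe signals of different probe sets and compare their changes, not their levels.

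The chromosome 1 pair is set beside them only through its shared probe set, 264365_s_at. That probe set had signals of 2565, 3988 and 3655 in sorted protoplasts, against 3976 and 5351 in whole roots. It was bright in every sample, and the groups overlapped, because the highest sorted sample lay just above the lower whole-root sample. The means were 3403 ± 744 in sorted protoplasts and 4664 ± 973 in whole roots (SD, n = 3 and n = 2), a log2 fold change of -0.46. A change in AT1G03220 could be offset by one in AT1G03230 without showing in this signal. The log2 fold change of AT5G19120 lay 1.58 above that of the shared probe set. For AT5G19110 the same difference was 6.79, or 5.13 with a pseudocount of 32, with the same limit on its size.

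Within the sorted group the 4 probe sets shared a rank order of replicates, but not the size of the differences. From replicate 1 to replicate 3 the signal went from 1031 to 1061 for AT5G19110. For the shared chromosome 1 probe set it went from 2565 to 3655. Replicate 2 was the highest and replicate 1 the lowest sorted sample in all 4 probe sets, a pattern found in 22.3% of tested probe sets. Whole-root replicate 2 was above replicate 1 in 3 of the 4 probe sets, AT5G19100 being the exception, and in 48.1% of tested probe sets.

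In the RefSeq gene order no other protein-coding gene lies between the members of either tandem group. Among the chromosome 5 genes lies 1 gene that is not protein-coding. Of the 3 protein-coding genes on each side of each group, 12 in all, 8 had a probe set of their own and all 8 were tested. By limma, with Benjamini-Hochberg adjustment over all tested probe sets, 3 of the 8 rose and 1 fell in sorted protoplasts (background 34.1% higher and 26.5% lower). All 4 of these were among the 5 tested on chromosome 5, beside 60.6% of all tested probe sets called in either direction. AT5G19130, which follows AT5G19120, had signals of 260, 296 and 336 in sorted protoplasts, against 151 and 149 in whole roots, a log2 fold change of 0.98 (SE 0.175, limma adjusted p = 0.00194). AT5G19070, the third gene before the trio, rose by a log2 fold change of 1.42 (limma adjusted p = 0.000344), and AT5G19150, the third gene after it, by one of 0.88 (limma adjusted p = 0.00177). AILP1 (AT5G19140) lay between these risers and fell, with signals of 113, 71.0 and 72.1 in sorted protoplasts, against 1009 and 948 in whole roots (log2 fold change -3.55, limma adjusted p = 2.27e-05). The annotated ranges of AILP1 and AT5G19150 overlap, as do those of AT1G03200 and AT1G03210 on chromosome 1. Whether this affects the signals of these neighbours was not tested. AT5G19090, directly before AT5G19100, had a log2 fold change of -0.13 (limma adjusted p = 0.629), which became 0.10 with median centring.

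Around the chromosome 1 pair, 0 of the 3 measured neighbours passed by limma, and 0 had an unadjusted p under 0.05. With so few genes, no difference between the chromosomes is read from these counts. AT1G03210 had a log2 fold change of -0.37 (limma adjusted p = 0.0773), AT1G03250 one of -0.24 (0.312) and AT1G03260 one of -0.47 (0.100). With quantile normalization AT1G03210 passed (adjusted p = 0.0401, within a range of 0.0401 to 0.531 over the alternatives). Over both chromosomes the log2 fold changes of the 8 measured neighbours ran from -3.55 to 1.42.

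**Figure D2:**
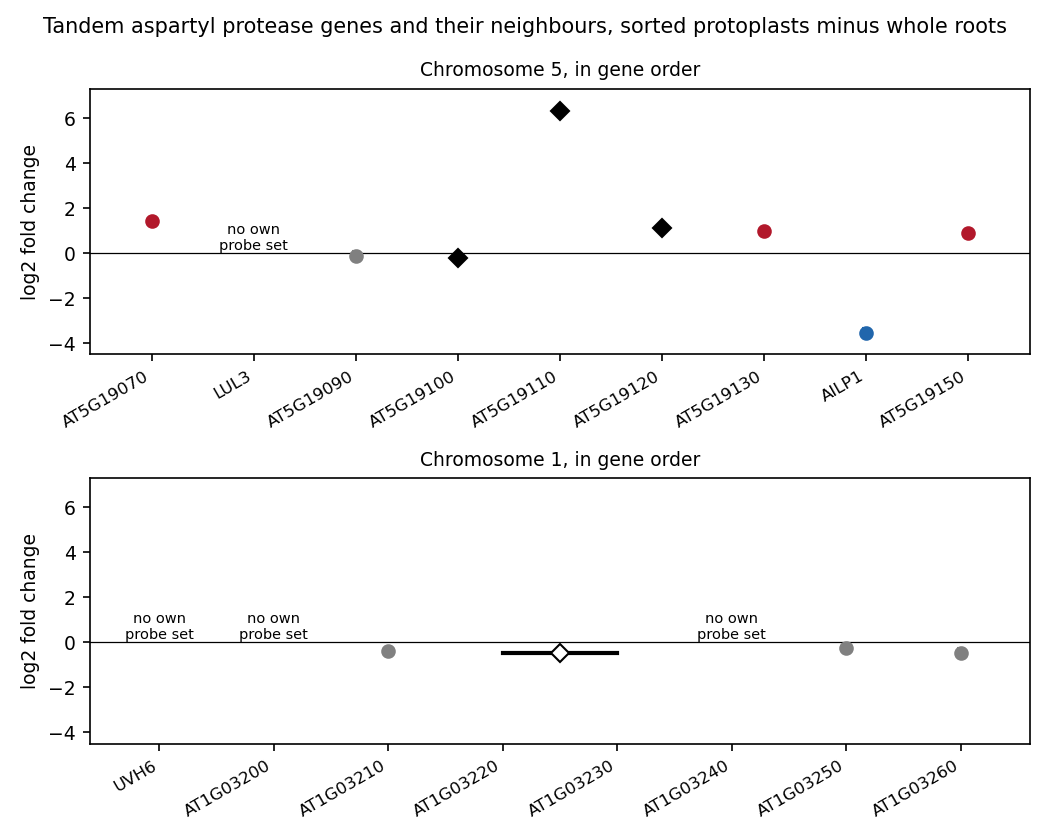
Log2 fold change, sorted protoplasts minus whole roots, of the tandem genes (black diamonds, no test) and of the 3 protein-coding genes on each side (circles with SE bars, which are smaller than the circles), in gene order on chromosomes 5 and 1. Red circles rose, blue fell and grey did not pass at adjusted p under 0.05; the open diamond with a bar is the probe set shared by AT1G03220 and AT1G03230. AT5G19110 stands at 6.32 between neighbours at -0.24 and 1.12.

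Among other aspartyl protease genes on a chosen list, the changes went both ways. The loci were listed by name with earlier results known, not taken from a full catalogue of the family. Of 24 other aspartyl protease loci, 19 had a probe set of their own and 14 were tested; 6 rose, 6 fell and 2 did not pass. Of the 6 that rose, 2 were kept by the dim filter only through their sorted signals, so the balance of 6 and 6 depends on the filter. At the 60% filter 4 rose and 6 fell of 11 tested, and with no filter 7 rose and 6 fell of 19. In all tested probe sets 34.1% rose and 26.5% fell, or 60.6% in both directions. With median centring the aspartyl protease counts were again 6 and 6, while the share of all calls that were higher was 67.3%, against 56.2% without centring. The median log2 fold change of the 14 genes was -0.46, beside 0.15 over all tested probe sets. Without whole-root replicate 2 fewer genes of the list were called lower, as were fewer of all tested probe sets. That fit leaves the whole-root group without replication.

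The largest rise in that list was AT4G04460. It had signals of 1015, 463 and 630 in sorted protoplasts, against 77.5 and 87.8 in whole roots, a log2 fold change of 3.01 (SE 0.305, limma adjusted p = 0.000133). AT3G54400 had signals of 1324, 1583 and 1826 in sorted protoplasts, against 206 and 229 in whole roots (log2 fold change 2.85, limma adjusted p = 1.64e-05). Both were well separated between the groups, with AT4G04460 the more variable among sorted samples. AT1G62290 (log2 fold change 2.61, limma adjusted p = 0.000222) and AT1G79720 (2.13, limma adjusted p = 0.00224) also rose. Their whole-root means were 20.5 and 18.0, under the dim bound, so these folds are imprecise. The filter kept both only through the sorted samples in which they are high. With no filter limma gave adjusted p = 0.000461 for AT1G62290 and 0.00480 for AT1G79720. Leaving out each sample gave log2 fold changes of 2.37 to 2.86 for AT1G62290. AT1G79720 was tested in 7 of the 12 alternatives, and in none that left out a sorted sample.

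AT2G03200 fell most. Its signals were 62.2, 43.3 and 46.6 in sorted protoplasts, against 1111 and 1268 in whole roots, a log2 fold change of -4.57 (SE 0.210, limma adjusted p = 8.46e-06). NANA (AT3G12700), an aspartyl protease located in chloroplasts, had 323, 240 and 245 in sorted protoplasts, against 2055 and 1731 in whole roots (log2 fold change -2.82, limma adjusted p = 2.09e-05). Both genes kept a wide gap between the groups. AT5G07030 (-1.82, limma adjusted p = 0.00116) and AT3G20015 (-0.80, limma adjusted p = 0.0145) fell as well. The adjusted p of AT3G20015 was 0.105 when whole-root replicate 1 was left out and 0.0640 when replicate 2 was, so the call was lost in both cases, within a range of 0.000178 to 0.105 over the alternatives. APA1, the aspartic proteinase A1, which fell too, had signals of 5597, 4499 and 4580 in sorted protoplasts, against 7009 and 8418 in whole roots (log2 fold change -0.66, limma adjusted p = 0.00676). It did not pass without whole-root replicate 2 (adjusted p = 0.0619, within 0.000697 to 0.0619 over the alternatives). It was chosen after its values were seen, as a named member of the family.

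**Figure D3:**
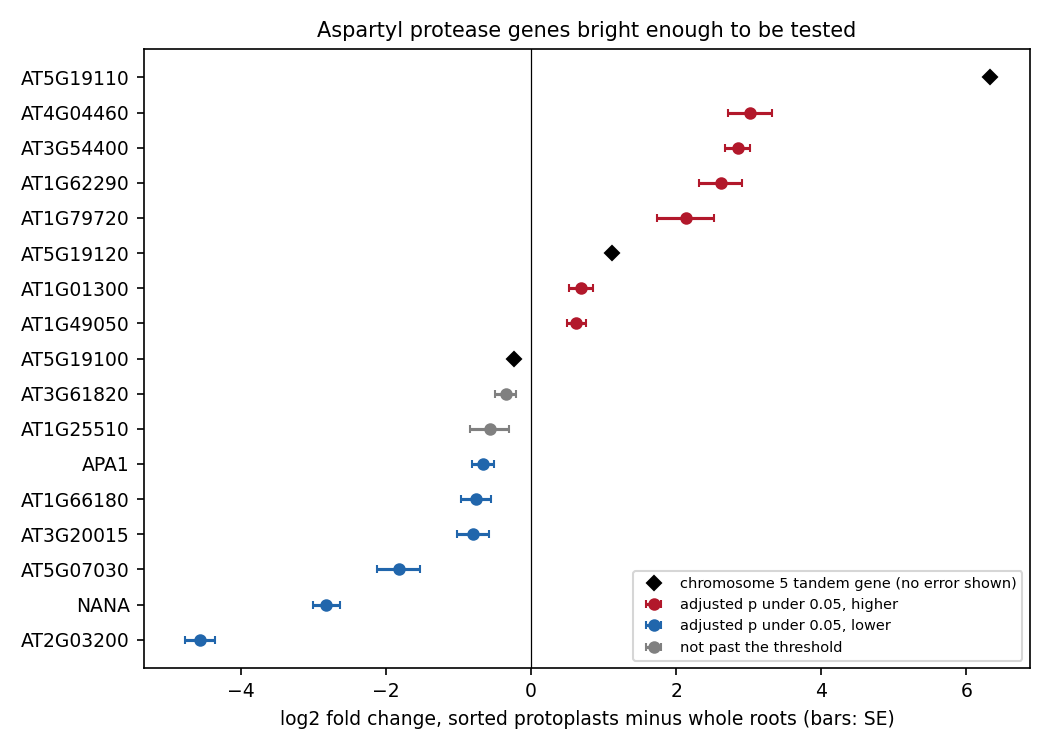
Log2 fold change, sorted protoplasts minus whole roots, of the 3 chromosome 5 genes (black diamonds, no error shown) and 14 other aspartyl protease genes. These are the tested genes of the chosen list (circles, bars are SE). The other genes run from -4.57 to 3.01, and AT5G19110 at 6.32 lies beyond that range, as the gene chosen by its high fold change.

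Endoglucanases, other inhibitors and extracellular defence proteins were followed only through probe sets annotated to a single locus. The platform annotation named no gene for 8730 probe sets, so a locus without a match may still be on the array. Of 25 GH9 endoglucanase loci, the plant's own family of such enzymes, 15 had a probe set of their own and 6 were tested. Of these, 3 rose, 1 fell and 2 were not called. That is 4 of 6 called, near the 60.6% of all tested probe sets. At the 60% filter 2 rose and 1 fell of 4. The median log2 fold change of the 6 genes was 0.30. GH9B13 had signals of 827, 662 and 646 in sorted protoplasts, against 144 and 150 in whole roots (log2 fold change 2.27, limma adjusted p = 3.58e-05). GH9C3 rose by a log2 fold change of 1.54 (limma adjusted p = 0.00656), but did not pass when whole-root replicate 1 was left out (adjusted p = 0.0527, within a range of 0.000202 to 0.0527 over the alternatives). Its whole-root mean of 26.7 lay under the dim bound, so its fold is imprecise, and the filter kept it only through its sorted signals (mean 81.2). GH9C2 fell, with a log2 fold change of -0.89 (limma adjusted p = 0.00240).

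Of 15 loci for other inhibitors of wall enzymes or proteases, 1 had a probe set of its own. That locus, AT1G17860, had signals of 1022, 1224 and 1146 in sorted protoplasts, against 5172 and 7026 in whole roots (log2 fold change -2.42, limma adjusted p = 2.76e-05). It went the other way from AT5G19110 and AT5G19120, with no overlap between the groups. Of 10 loci for extracellular defence proteins, 2 had a probe set of their own and 1 was tested. OSM34, an osmotin of the thaumatin-like defence proteins, had signals of 137, 82.0 and 144 in sorted protoplasts, against 3788 and 4476 in whole roots (log2 fold change -5.13, limma adjusted p = 8.98e-06). The defensin PDF1.2 was too dim to be tested.

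Genes with profiles most like each member were found by the Euclidean distance between log2 signals centred on each probe set's mean over the 5 samples, among single-gene probe sets. For AT5G19110 these were AT1G21340 (distance 0.718), AT3G02840 (0.739) and AT1G76640, the calmodulin-like gene CML39 (0.912). CML39 had signals of 173, 240 and 201 in sorted protoplasts, against 1.11 and 1.91 in whole roots. AT3G02840 had 606, 750 and 644 in sorted protoplasts, against 12.4 and 12.5 in whole roots. Each of these genes was, like AT5G19110, far under the dim bound in whole roots, and AT1G21340 and CML39 were left out of the test as dim. The distance uses the signals that chose AT5G19110, so genes with a similar gap come out nearest by construction. For AT5G19120 the nearest were AT5G49530 (0.0765), AT4G32750 (0.105) and AT3G21470 (0.110). For AT5G19100 they were AT1G25400 (0.0795), AT1G22700 (0.117) and AT3G19330 (0.120). AT3G21470 and AT3G19330 were also left out of the test as dim.

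Ratios of 3′ to 5′ control signals were higher and green tissue markers lower in sorted protoplasts, where AT5G19110 and AT5G19120 were higher. Root cell type markers were mixed. RNA quality and RNA amount cannot be told apart in these ratios. Between the 3′ and 5′ control probe sets of actin, the signal ratio averaged 25.0 ± 4.80 for sorted protoplasts (SD, n = 3), against 3.19 ± 0.153 for whole roots (SD, n = 2). For GAPDH it averaged 6.73 ± 2.14 for sorted protoplasts (SD, n = 3), against 0.879 ± 0.128 for whole roots (SD, n = 2). Of 16 root cell type markers, 6 had a probe set of their own, with summed signals of 401 to 695 in sorted protoplasts and 737 to 895 in whole roots. Of the 6, 3 were lower in sorted protoplasts with no overlap and 3 overlapped between the groups. Over all tested probe sets, 75.8% showed no overlap in either direction, so nothing is read from that count. For the root hair gene AT1G12560 the gap was narrow, between a highest sorted signal of 66.1 and a lowest whole-root signal of 67.7. The root hair gene AT4G26010 gave most of the lower sum, with means of 151 in sorted protoplasts and 432 in whole roots. The root cap gene AT1G65570 had means of 149 in sorted protoplasts and 77.3 in whole roots, the xylem gene AT1G27440 171 and 131, and the cortex gene AT1G62500 30.1 and 30.8, all with overlap. None of the 6 was listed at 0, though 2 had sorted means and 1 a whole-root mean under the dim bound. Of 3 green tissue markers, 2 were measured, with summed signals of 92.6 to 112 in sorted protoplasts and 802 to 971 in whole roots. The part of these differences in the members' signals was not tested.

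**Figure D4:**
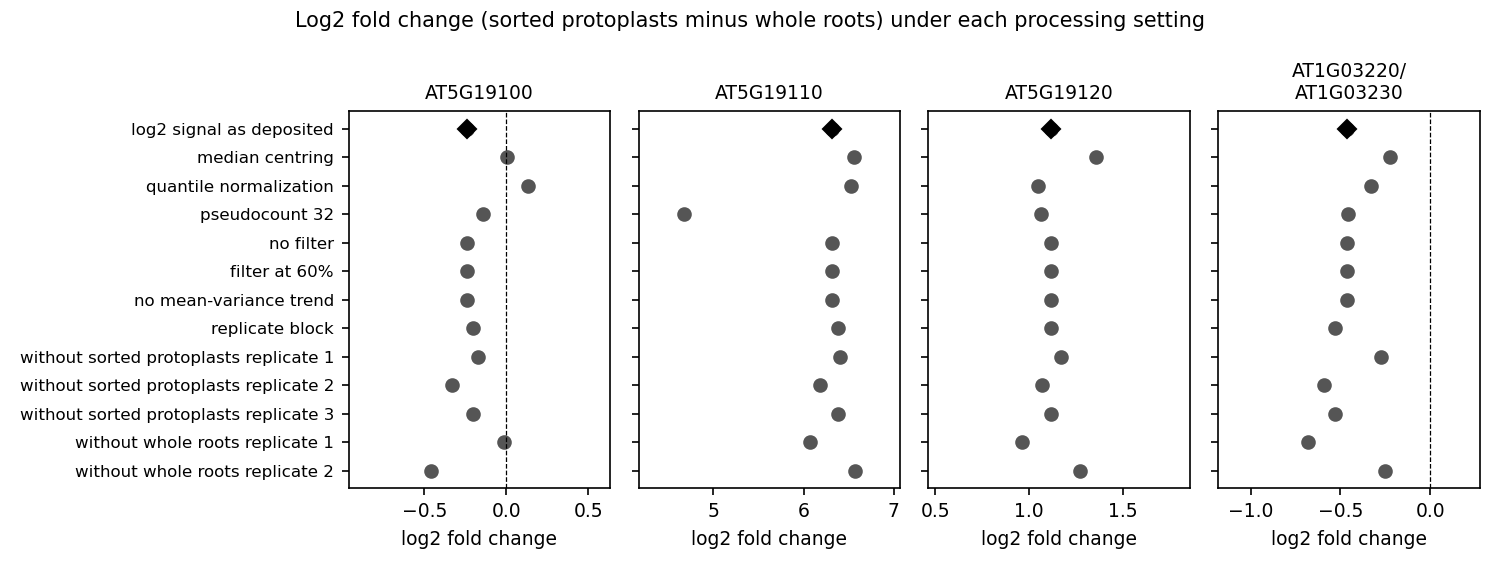
Log2 fold change, sorted protoplasts minus whole roots, of the 3 chromosome 5 genes and the shared chromosome 1 probe set under each processing setting (rows), each panel with its own horizontal scale. AT5G19110 stays between 4.67 and 6.57 and AT5G19120 between 0.96 and 1.36, while AT5G19100 runs from -0.46 to 0.13 across the dashed zero line.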

How the data were processed

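Transcripts of 3 sorted protoplast and 2 whole-root samples were measured on Affymetrix ATH1 arrays. The authors deposited an intensity for every probe set on each array, on a linear scale; the submitters' processing notes name MAS5 as its source. The mean after trimming 2% at each end was 250.02 on 4 of the arrays and 250.022 on the other. Detection calls, software version and build were not given in the sources used here, so no coordinates are printed. Arrays hold no counts, and their number limits the precision.

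The deposited signals were log2-transformed. After 64 control probe sets and the 40% with the lowest mean log2 value (9099, bound 43.3) were left out, 13647 were tested with limma 3.58.1 (R 4.3.3; lmFit, eBayes with trend, group as sole factor) and Benjamini-Hochberg adjustment, threshold 0.05. On simulated data, in which few probe sets differed between the groups, the test was checked beforehand. In these data 60.6% of tested probe sets were called, so that check does not give their error rate. The platform annotation named 1 gene for 13513 probe sets, several for 503 and none for 8730, and 13436 matched the RefSeq table (TAIR10.1), used for names and gene order. Where a gene had several probe sets, the brightest was used.

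The members and gene lists were chosen with earlier results of these data known. List terms were matched to symbols and synonyms, as the table has no descriptions. Named were all members, the 4 largest rises and falls without overlap among other aspartyl proteases, the 2 largest in each direction in other lists, all measured flanking genes, and the 3 nearest profiles per member. Alternatives were a pseudocount of 32, quantile normalization, median centring, a 60% filter or none, no trend, the replicate number as a block and leaving out each sample. Planned protein and promoter sequence comparisons were not run.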

Additional observations from a re-analysis of the deposited data

How the results depend on the processing

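Of 22 named genes with a test, 17 kept their direction and their side of the threshold under each of the 12 alternatives in which they were tested. AT1G03210, AT3G20015, GH9C3 and APA1 changed sides. Not every gene was tested in all alternatives: GH9C3 was tested in 9, and AT1G79720 in 7, none of which left out a sorted sample. AT5G19090, which did not pass under any alternative, turned to 0.10 with median centring and ran from -0.32 to 0.0455 when each sample was left out, the higher value being without whole-root replicate 1. Median centring moved the log2 fold change of AT5G19100 to 0.00183 and that of AT5G19120 to 1.36, while the median over all tested probe sets became 0.39 in place of 0.15; quantile normalization moved AT5G19100 to 0.13. A pseudocount of 32 moved AT5G19110 to 4.67, since it compresses low signals by construction. Leaving out each sample gave log2 fold changes of 6.07 to 6.57 for AT5G19110, 0.96 to 1.27 for AT5G19120, -0.46 to -0.01 for AT5G19100 and -0.68 to -0.25 for the probe set of the chromosome 1 pair. Over all tested probe sets, 2223 were lower at the 60% filter, where 9098 were tested, against 3623, and leaving out each sample gave 3424 to 5209 higher and 2516 to 4278 lower. It gave 5 to 7 other aspartyl proteases higher and 3 to 7 lower, and 2 to 3 GH9 genes higher and 1 to 2 lower. Quantile normalization gave 2 lower flanking genes, and no filter gave 1 higher defence gene. The replicate number as a block gave 2 lower GH9 genes and log2 fold changes of 6.38 for AT5G19110 and 1.11 for AT5G19120. Sorted replicate 3 has no whole-root sample of the same number, so these fold changes equal those without that replicate. Deviations of same-numbered samples did not go together (r = 0.00569 for number 1 and 0.00134 for number 2 over 13647 probe sets). No pairing by number showed, but with 2 whole-root arrays this check cannot exclude one. The cause of these shifts was not tested unless stated. Signals under the bound of 43.3, as for AT5G19110 in whole roots, limit the precision of its fold.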
